A study of Mus musculus with 9 samples.

Results

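The genes described here make cholesterol and fatty acids or sense and move sterols. They are 32 of the 18193 genes that have a probe set with a single gene symbol in the platform annotation: 16 enzymes of sterol synthesis, 5 genes of sterol sensing and transport, and 11 genes of fatty acid synthesis, elongation, desaturation and activation. Each gene was counted by 1 probe set, the one with the highest mean log2 intensity over the 9 arrays, and all probe sets are given for Cyp51, the sterol demethylase. The 32 counted probe sets all passed the filter on low values that left 11620 genes tested.

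Expression was measured on Affymetrix Mouse 430 2.0 arrays in lung cells labelled type II, the surfactant-making cells of the alveolar epithelium, kept in culture for 5 days with keratinocyte growth factor. The 3 groups of 3 arrays were wild-type (Nrf2+/+) cells, Nrf2-/- cells, called knockout here, and Nrf2-/- cells supplemented with GSH, the usual abbreviation of glutathione, all from ICR10 mice labelled as female and 2 months old. Nrf2 is the master activator of antioxidant and detoxification genes. The title of the series sets Nrf2-/- cells against wild-type cells. The sources used here give no dose or time of GSH, no description of the Nrf2 allele and no purpose of the GSH arm, and the treatment protocol of every array states that none was given. Each label gives n = 1 and 1 tissue without naming the animal or culture, so p-values reflect only how far arrays of a group differed, and that spread can be technical. A number in the sample titles splits every group into 2 arrays of set 2 and 1 array of set 3, and no source says what it stands for.

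Cholesterol is built from acetyl-CoA through the mevalonate arm, which gives farnesyl diphosphate, through squalene and lanosterol, and then through a chain of demethylations, reductions and isomerisations. Palmitate is built from the same acetyl-CoA, then elongated and desaturated. When cell sterol is low, Scap carries the SREBP transcription factors to the Golgi to be cleaved, and the cleaved factors switch on genes of both branches; the Insig proteins hold the complex back when sterol is plentiful. Type II cells use these lipids for membranes and for surfactant, whose main component is a saturated phosphatidylcholine.

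The targeted gene was checked first. Nfe2l2, which encodes Nrf2, had intensities of 3879, 3889.8 and 4173 in wild type, 73.6, 77.4 and 28.7 in knockout and 45.3, 46.2 and 33.3 in knockout with GSH at probe set 1416543_at. A second, dimmer probe set, 1457117_at, read 39.2, 51.6 and 35.8 in wild type, 37.0, 68.6 and 34.4 in knockout and 189, 134 and 121 in knockout with GSH, and no source used here says whether either lies in the deleted part. The wild-type arrays went against the label of female sex: the Y-linked genes Eif2s3y and Kdm5d read 701 to 936 and 289 to 351 there against 1.50 to 24.4 and 18.7 to 43.7 in knockout, and Xist, the RNA of the inactive X chromosome, read 132 to 188 in wild type against 2444 to 4643 in knockout. Genotype and this difference cannot be told apart in either comparison with wild type. Signal counts as above the control level when it passes the 95th percentile of 27 bacterial control probe sets on the same array (43.4 to 82.9). By that measure Sftpc, the surfactant protein that defines type II cells, was above the control level on none of the wild-type arrays (44.6, 25.5 and 41.7) and on every knockout array (67.3, 145 and 55.1) and GSH array (132, 118 and 73.8). Sftpc lay under the filter on low values, and in a fit without that filter its difference between knockout and wild type did not pass the test (adjusted p = 0.11). Of 12 type II markers measured, 9 passed the filter. In knockout 3 rose and 1 fell, where 16.7% and 15.7% of all genes tested did so. With GSH against knockout 5 rose, where 19.7% of all genes did. The summed intensity of the 12 was 18840 to 23380 in wild type, 21965 to 32414 in knockout and 26599 to 36001 with GSH. The list holds Lyz2 and Cd74, which need not come from type II cells alone, and the source of these rises was not tested. The marker that fell in knockout was Sftpd, another surfactant protein, at 479, 477 and 388 in wild type, 283, 188 and 184 in knockout and 375, 365 and 306 in knockout with GSH (log2 change -1.06, adjusted p = 0.00035). Correlations between arrays were 0.979 to 0.99 within a group and set and 0.902 to 0.954 between groups of 1 set.

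Markers of other cells moved with the groups. The summed intensity of 12 epithelial markers was 54198 to 54798 in wild type, 15705 to 16746 in knockout and 74408 to 80900 with GSH, and all 11 that passed the filter fell in knockout and rose with GSH. The sum of 20 macrophage markers was 61662 to 63987, 114022 to 127428 and 157543 to 177459 in the same order. Of the 20, 18 were higher and 2 lower in knockout, and 13 were higher and 2 lower with GSH against knockout. The sum of 15 fibroblast and mesenchymal markers was 103846 to 110519, 124461 to 158587 and 64254 to 72439. Of the 15, 10 were higher and 2 lower in knockout, and 12 were lower and 1 higher with GSH against knockout. Over all genes tested 16.7% rose and 15.7% fell in knockout, and 19.7% rose and 19.8% fell with GSH. In each of these 3 lists every marker was above the control level on at least 1 array. The sum of 11 mitosis genes was 14078 to 14889, 19794 to 22140 and 12717 to 13530. In bulk RNA, fewer cells of a type and less RNA per cell cannot be told apart, and the part of these markers in the results below was not tested.

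Promoter sequences are shown for genes on which the results turn: Hmgcs1, Cyp51, Fasn and Fads2, which fell with GSH, and Ebp and Acsl5, which rose. Each is the 250 bases before the gene's start from RefSeq (GRCm38.p6), 5′ to 3′ along the gene. Capitals mark matches on either strand to TCACNCCAC, a form of the sterol regulatory element bound by SREBPs, and to CCAAT, the box bound by NF-Y, a usual partner of SREBPs. The window of Hmgcs1, an early synthase of the mevalonate arm, is chr13:119690101-119690350 on the plus strand. That of Cyp51 is chr5:4104698-4104947 on the minus strand, and that of Fasn, the fatty acid synthase, chr11:120824548-120824797 on the minus strand. That of Fads2, the delta-6 desaturase, is chr19:10101504-10101753 on the minus strand. That of Ebp, the sterol isomerase, is chrX:8193513-8193762 on the minus strand, and that of Acsl5, an acyl-CoA synthetase, chr19:55253119-55253368 on the plus strand.
Hmgcs1: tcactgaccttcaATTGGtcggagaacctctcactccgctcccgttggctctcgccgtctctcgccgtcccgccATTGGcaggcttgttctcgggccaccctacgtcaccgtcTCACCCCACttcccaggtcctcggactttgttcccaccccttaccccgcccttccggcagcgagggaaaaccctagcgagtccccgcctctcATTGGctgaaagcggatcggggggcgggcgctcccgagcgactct
Cyp51: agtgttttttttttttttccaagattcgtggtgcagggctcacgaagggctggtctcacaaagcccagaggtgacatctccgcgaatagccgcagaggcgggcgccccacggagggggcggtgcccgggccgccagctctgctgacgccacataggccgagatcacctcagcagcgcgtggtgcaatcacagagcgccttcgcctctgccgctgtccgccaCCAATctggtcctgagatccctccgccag
Fasn: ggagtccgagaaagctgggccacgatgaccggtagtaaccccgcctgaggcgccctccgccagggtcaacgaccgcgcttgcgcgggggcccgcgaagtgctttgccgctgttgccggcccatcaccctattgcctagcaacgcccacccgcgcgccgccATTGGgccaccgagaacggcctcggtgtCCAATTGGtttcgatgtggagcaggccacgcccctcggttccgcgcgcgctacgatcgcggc
Fads2: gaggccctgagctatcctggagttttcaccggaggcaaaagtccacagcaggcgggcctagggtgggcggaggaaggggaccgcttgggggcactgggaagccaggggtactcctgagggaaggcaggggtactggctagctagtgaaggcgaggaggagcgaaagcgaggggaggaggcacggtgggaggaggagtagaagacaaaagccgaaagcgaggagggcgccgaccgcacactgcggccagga
Ebp: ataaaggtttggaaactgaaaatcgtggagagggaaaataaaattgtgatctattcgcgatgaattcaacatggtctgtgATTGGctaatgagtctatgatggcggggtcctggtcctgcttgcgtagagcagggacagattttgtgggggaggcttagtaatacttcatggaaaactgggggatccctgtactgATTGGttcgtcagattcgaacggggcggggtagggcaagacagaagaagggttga
Acsl5: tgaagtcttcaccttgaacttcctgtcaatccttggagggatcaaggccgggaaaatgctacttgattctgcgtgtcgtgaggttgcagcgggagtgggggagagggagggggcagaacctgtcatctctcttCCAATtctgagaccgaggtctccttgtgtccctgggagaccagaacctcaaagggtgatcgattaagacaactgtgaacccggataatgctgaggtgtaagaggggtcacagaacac
The table of promoters held 33 promoters of 25 of the 32 genes, and Fdps, Fdft1, Sqle, Stard4, Scd1, Scd2 and Fads1 were not among them. The exact element TCACNCCAC stood in 1 member promoter, that of Hmgcs1, 137 bases before the start, and in 1.05% of all 32851 promoters of the table. With a second free letter, TCACNNCAC, it matched Acsl5, Dhcr7, Hmgcs1 and Hsd17b7, and 3.11% of all promoters. CCAAT stood before 21 of the 25 genes, namely 13 of 13 sterol enzymes, 4 of 4 sensing and transport genes and 4 of 8 fatty acid genes, counting a gene when any of its promoters held it. By promoter it stood in 22 of 33, against 33.8% of all promoters. TGACNNNGC, the core of the antioxidant response element that Nrf2 binds, stood before Dhcr7, Mvk and Pmvk, and in 10.2% of all promoters. Both strands were searched; TCACNNCAC takes in every TCACNCCAC, and CCAAT and its reverse overlap once before Fasn. These matches describe the letters only, since the arrays do not measure binding, and no match says only that the letters are not in the window.

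Adding GSH to knockout cells went with lower signal over much of the pathway. Of the 32 genes, 17 fell and 5 rose between knockout and knockout with GSH, and the median log2 change was -0.35, where 19.8% of the 11620 genes tested fell, 19.7% rose and the median was 0.01. A gene counts as fallen or risen at an adjusted p under 0.05 in limma, with the adjustment of Benjamini and Hochberg over all probe sets kept. The falls were spread over both branches: 7 of 16 sterol enzymes, 3 of 5 sensing and transport genes and 7 of 11 fatty acid genes fell, with medians of -0.26, -0.36 and -0.62. The rises were Tm7sf2, Ebp and Dhcr7, which act after lanosterol in the sterol chain, and Elovl1 and Acsl5 among the fatty acid genes. In all 22 the difference had the same direction in set 2 and set 3.

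**Figure D1:**
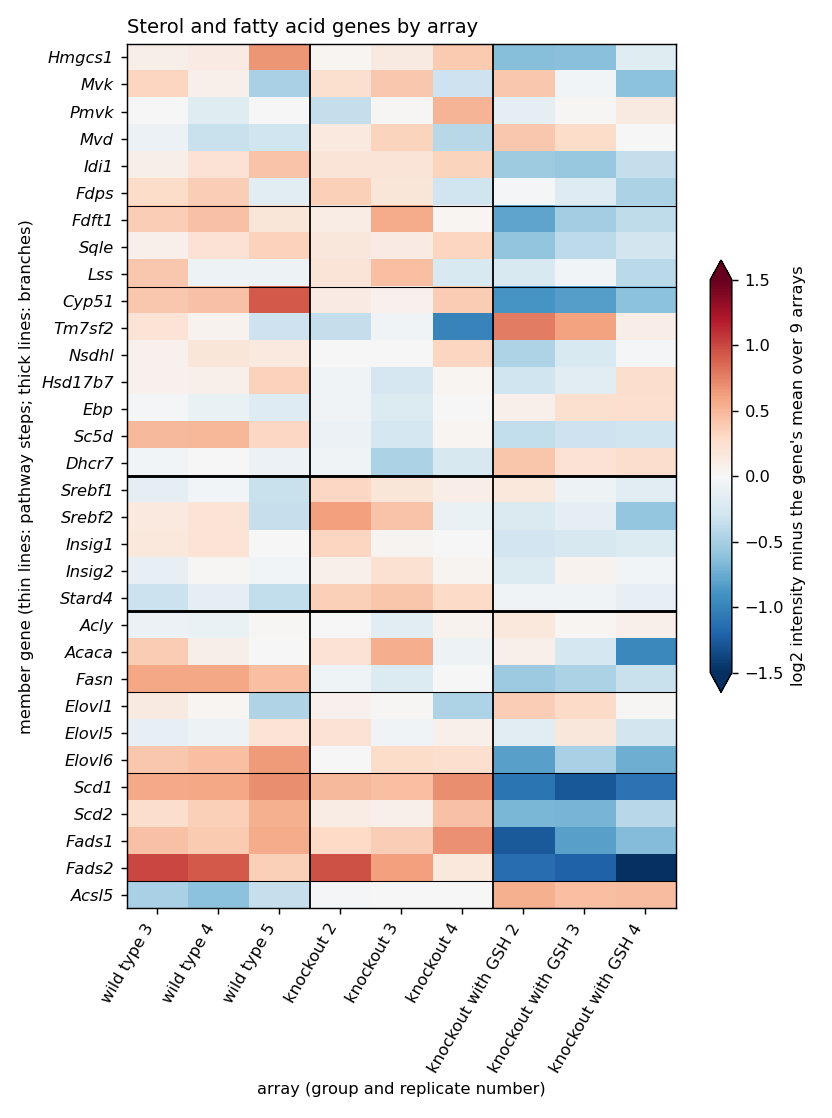
Log2 intensity of each of the 32 genes (vertical axis, in pathway order) on each of the 9 arrays (horizontal axis), relative to that gene's mean over the arrays; red is above the mean and blue below. The 3 arrays with GSH, on the right, are mostly blue for the 17 genes that fell with GSH, and Tm7sf2, Dhcr7 and Acsl5 are red there.

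The 4 desaturases, which put double bonds into fatty acids, fell with GSH by the widest margin of any step, with a median log2 change of -1.53. Scd1, a stearoyl-CoA desaturase that turns saturated into monounsaturated fatty acids, read 3185, 3217 and 3475 in wild type, 3022, 2944 and 3484 in knockout and 1006, 894 and 995 in knockout with GSH. Every GSH array lay far below the other 6, while the wild-type and knockout arrays overlapped. The mean went from 3149.8 ± 292 to 965 ± 61.5 (SD, n = 3), a 3.26-fold fall (log2 change -1.70, SE 0.068, adjusted p = 6.5e-09). Scd2, the related desaturase expressed in many tissues, read 9777, 10465 and 11791 in wild type, 8820.3, 8605 and 11007 in knockout and 5067, 5033 and 6115 in knockout with GSH. The GSH arrays again lay below the rest without overlap, and the fall was 1.75-fold (log2 change -0.81, SE 0.057, adjusted p = 7.1e-07).

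Fads1 and Fads2, the delta-5 and delta-6 desaturases that make long polyunsaturated fatty acids, followed the same order. Fads2 read 2092, 1982 and 1336 in wild type, 2022, 1598 and 1171 in knockout and 472, 452 and 334 in knockout with GSH, from 1597 ± 426 in knockout to 419 ± 74.4 with GSH (SD, n = 3). The array of set 3 was the lowest of each group, and all GSH arrays stayed below the others. The fall was 3.76-fold (log2 change -1.91, SE 0.094, adjusted p = 3.7e-08), and it measured -1.96 in set 2 and -1.81 in set 3. Fads1 read 2732, 2639.5 and 2969 in wild type, 2479.7, 2596 and 3242 in knockout and 842, 1144 and 1282 in knockout with GSH. Here too the groups with and without GSH did not overlap, and the fall was 2.57-fold (log2 change -1.36, SE 0.10, adjusted p = 1.3e-06). A second, dimmer Fads1 probe set, 1440444_at, did not pass the test.

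**Figure D2:**
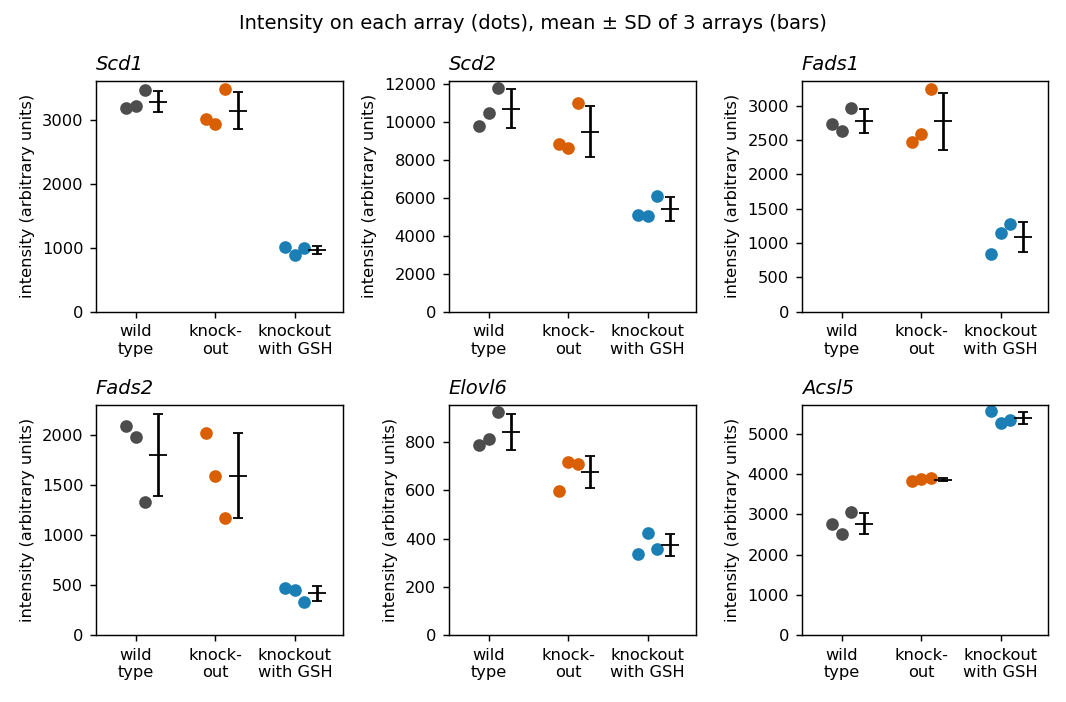
Intensity in arbitrary units (vertical axes, from 0) of Scd1, Scd2, Fads1, Fads2, Elovl6 and Acsl5 on each array (dots), with mean ± SD of 3 arrays (bars) for wild type, knockout and knockout with GSH. Scd1 read 894 to 1006 with GSH against 2944 to 3484 in knockout, while Acsl5 read 5269 to 5568 against 3822 to 3894.

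The elongases, which lengthen fatty acids by successive carbon pairs, did not move as a block. Elovl6, which lengthens palmitate, read 785, 813 and 922 in wild type, 597, 716 and 707 in knockout and 337, 424 and 355 in knockout with GSH. The 3 groups were separate, and the fall with GSH was 1.81-fold (log2 change -0.86, SE 0.12, adjusted p = 0.00017); its other kept probe set, 1417403_at, fell too. Elovl1, which lengthens saturated and monounsaturated very long chains, read 3388, 3150.4 and 2269 in wild type, 3243, 3144 and 2252 in knockout and 3992, 3776 and 3140.4 in knockout with GSH. The array of set 3 was the lowest of each group, so the groups overlapped, yet within each set the GSH arrays were higher (0.28 in set 2 and 0.48 in set 3), and the rise was 1.27-fold (log2 change 0.35, SE 0.068, adjusted p = 0.002). The other 2 kept Elovl1 probe sets did not pass the test. Elovl5, which lengthens polyunsaturated chains, differed by -0.16 (95% interval -0.44 to 0.11, adjusted p = 0.34), while its other kept probe set, 1437211_x_at, fell (log2 change -0.23, adjusted p = 0.027).

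Of the steps from citrate to palmitate, Fasn and Acaca fell with GSH and Acly did not pass the test. Fasn, which assembles palmitate, read 2512, 2504 and 2288 in wild type, 1601, 1454 and 1687 in knockout and 1144, 1205 and 1326 in knockout with GSH. The 3 groups were ordered without overlap, and GSH went with a further 1.29-fold fall (log2 change -0.37, SE 0.081, adjusted p = 0.0042). Acaca, the carboxylase that commits acetyl-CoA to fatty acids, read 539.5, 443 and 416 in wild type, 484, 604 and 395 in knockout and 438, 345 and 212 in knockout with GSH. Its groups overlapped, and the 1.53-fold fall (log2 change -0.62, SE 0.17, adjusted p = 0.013) was lost without knockout 3, knockout 4 or GSH 4 (adjusted p = 0.051, 0.055 and 0.079), in set 2 alone (0.085) and at its other kept probe set. Acly, which splits citrate into acetyl-CoA, differed by 0.12 (95% interval -0.030 to 0.27, adjusted p = 0.2). Acsl5, which activates long-chain fatty acids with coenzyme A, read 2752, 2523 and 3051 in wild type, 3822, 3876 and 3894 in knockout and 5568, 5269 and 5332 in knockout with GSH. It rose 1.39-fold with GSH (log2 change 0.48, SE 0.069, adjusted p = 0.00021), against the direction of the desaturases.

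In the sterol branch 5 of the 7 falls lay before lanosterol. Hmgcs1 read 4170.3, 4269.5 and 6203 in wild type, 3989.5, 4298 and 5133 in knockout and 2519, 2538 and 3449 in knockout with GSH at probe set 1433445_x_at, whose suffix marks probes that may also match other transcripts. Each group was highest on its set 3 array, and every GSH array was below every other array. The fall with GSH was 1.59-fold (log2 change -0.67, SE 0.066, adjusted p = 1.2e-05). Idi1, the isomerase that activates isopentenyl units, read 1546, 1683 and 1957 in wild type, 1657, 1658 and 1826 in knockout and 999, 977 and 1131 in knockout with GSH. It fell 1.66-fold without overlap (log2 change -0.73, SE 0.068, adjusted p = 7.4e-06). Fdps, which joins these units to farnesyl diphosphate, read 4029.9, 4309 and 2979.8 in wild type, 4264, 3774 and 2703 in knockout and 3268, 2909.9 and 2396 in knockout with GSH. The set 3 arrays were the lowest of each group and the groups overlapped; the 1.24-fold fall (log2 change -0.31, SE 0.076, adjusted p = 0.0077) measured -0.38 in set 2 and -0.17 in set 3, and a fit with the replicate number as a block in place of the set took it to an adjusted p = 0.076. The kinases Mvk and Pmvk and the decarboxylase Mvd, which stand between Hmgcs1 and Idi1, differed by -0.19, -0.059 and 0.20, and none of these passed the test (adjusted p = 0.36, 0.8 and 0.28). The other kept Mvd probe set, 1417303_at, rose (log2 change 0.50, adjusted p = 0.014).

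The enzymes around squalene gave a like picture. Fdft1, squalene synthase, read 1488, 1562 and 1307 in wild type, 1242, 1688 and 1169 in knockout and 664, 799 and 885 in knockout with GSH. Its GSH arrays lay below all others, with a 1.73-fold fall (log2 change -0.79, SE 0.14, adjusted p = 0.0011) that was -0.99 in set 2 and -0.40 in set 3. Sqle, squalene epoxidase and a rate-limiting step, read 2021, 2224 and 2433 in wild type, 2142, 2089 and 2388 in knockout and 1268, 1452 and 1586 in knockout with GSH. It fell 1.54-fold without overlap (log2 change -0.62, SE 0.072, adjusted p = 3.8e-05). Lss, which folds the epoxide into lanosterol, differed by -0.36 (adjusted p = 0.065); the call was gained without wild type 4 (0.036), with every array centred on its median (0.03) and with the replicate block over the 6 knockout arrays, chosen after seeing the data (0.047).

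After lanosterol the directions parted. Cyp51, which removes a methyl group of lanosterol, read 1845, 1879.7 and 2616 in wild type, 1516, 1447 and 1815 in knockout and 751, 781 and 905 in knockout with GSH at probe set 1450646_at, and fell 1.96-fold with GSH (log2 change -0.97, SE 0.074, adjusted p = 1.3e-06). Nsdhl, a dehydrogenase of the next demethylations, read 1588, 1713 and 1670.1 in wild type, 1509.6, 1522 and 1890.1 in knockout and 1097, 1291 and 1498 in knockout with GSH, and fell 1.27-fold (log2 change -0.34, SE 0.091, adjusted p = 0.012), a call lost without knockout 4 (adjusted p = 0.065). Tm7sf2, a sterol reductase of the same stretch, read 365, 328 and 256 in wild type, 247, 306 and 158 in knockout and 539.8, 484 and 339 in knockout with GSH. The GSH arrays were above every knockout array, a 1.95-fold rise (log2 change 0.96, SE 0.14, adjusted p = 0.00025). Dhcr7, which makes cholesterol in the last reduction, read 1103, 1142 and 1067 in wild type, 1098, 816 and 965 in knockout and 1513, 1320.4 and 1364 in knockout with GSH. It rose 1.47-fold without overlap (log2 change 0.55, SE 0.11, adjusted p = 0.0017). Ebp read 1874, 1763 and 1654 in wild type, 1825, 1644 and 1889 in knockout and 1994, 2226 and 2261 in knockout with GSH, and rose 1.21-fold (log2 change 0.27, SE 0.082, adjusted p = 0.022). That call was lost without knockout 3, GSH 3 or GSH 4 (adjusted p = 0.079, 0.078 and 0.097), with the replicate block (0.07), in set 2 alone (0.054) and with median centring (0.19). Hsd17b7, a keto-reductase, and Sc5d, a desaturase of the sterol ring, differed by 0.023 and -0.22 (adjusted p = 0.88 and 0.083); without knockout 3 Sc5d passed the test (0.024), as did its other 2 kept probe sets, of which 1424709_at was above the control level on 1 of 3 GSH arrays.

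Of the 5 sensing and transport genes, Srebf2, Insig1 and Stard4 fell with GSH. Srebf2, which encodes SREBP-2, the activator of sterol genes, read 1044, 1089 and 744 in wild type, 1452, 1271 and 886 in knockout and 813, 857 and 632 in knockout with GSH. Within each set the GSH arrays were the lowest, and the fall from knockout was 1.55-fold (log2 change -0.63, SE 0.085, adjusted p = 0.00013). Insig1, the retention protein that is itself an SREBP target, read 1359, 1400.2 and 1224 in wild type, 1518, 1253 and 1213 in knockout and 998, 1034 and 1052 in knockout with GSH, and fell 1.29-fold (log2 change -0.36, SE 0.090, adjusted p = 0.0081). Stard4, a carrier of cholesterol between membranes, read 749, 851 and 725 in wild type, 1205, 1254 and 1141 in knockout and 904, 906 and 865 in knockout with GSH, and fell 1.35-fold (log2 change -0.43, SE 0.078, adjusted p = 0.0012). For Srebf1, which encodes SREBP-1, the activator of fatty acid genes, the difference was -0.22 (adjusted p = 0.058), which passed the test without knockout 3 (0.049) or GSH 2 (0.026). Insig2, the related retention protein, differed by -0.18 (adjusted p = 0.17), and its other 2 kept probe sets by 0.22 and 0.16 (adjusted p = 0.09 and 0.36).

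**Figure D3:**
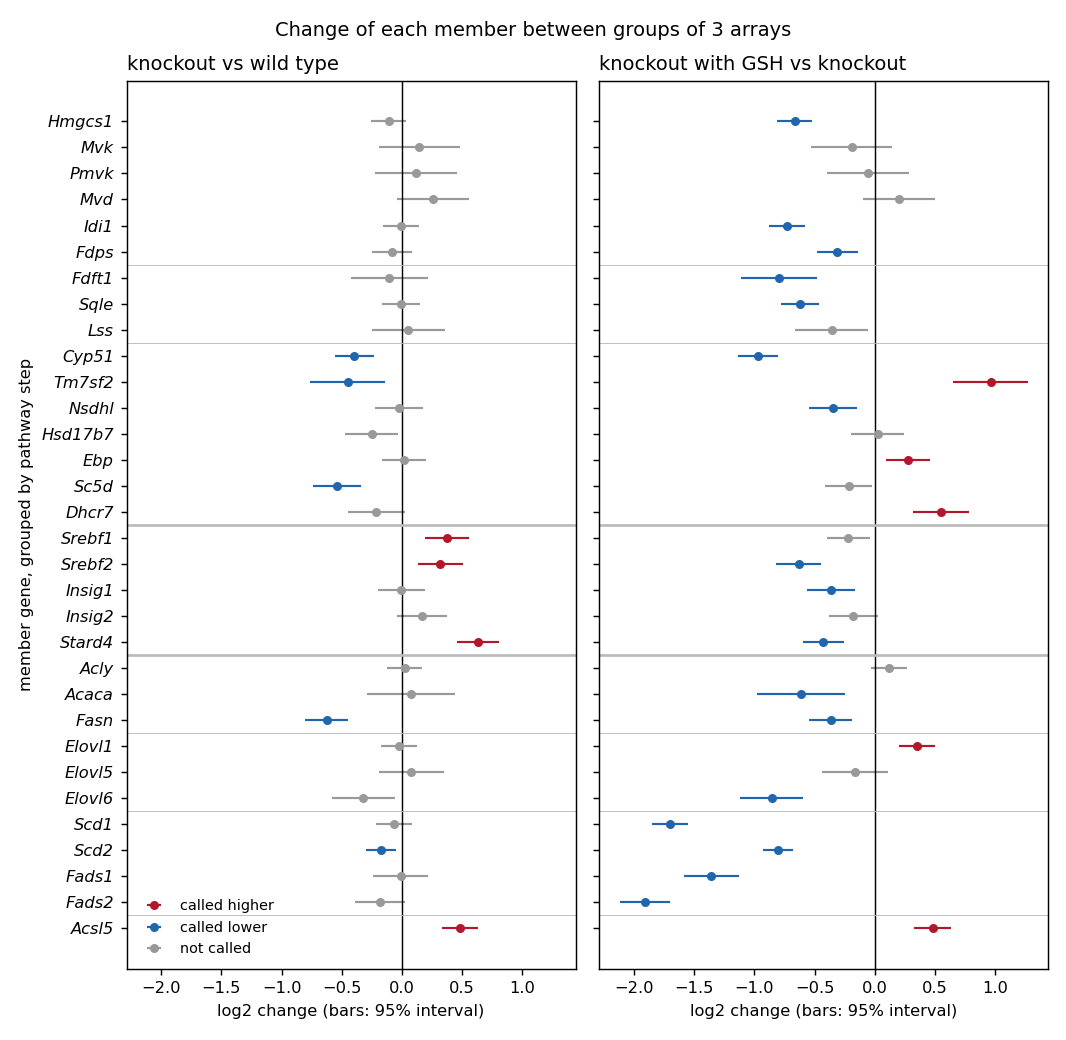
Log2 change of each gene (points) with its 95% interval (bars) for knockout against wild type (left) and knockout with GSH against knockout (right); red points rose, blue points fell and grey points did not pass the test. On the right the points run from -1.91 for Fads2 to 0.96 for Tm7sf2, and on the left from -0.62 for Fasn to 0.63 for Stard4.

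Between knockout and wild type fewer genes passed the test. Of the 32 genes, 4 rose and 5 fell, with a median log2 change of -0.01. Over all genes tested 16.7% rose and 15.7% fell with a median of 0.01, so these counts are near the background and are no result about the genes as a group. The knockout arrays enter this comparison and the one with GSH, so the values of a gene in both are not independent. The epithelial, macrophage and fibroblast sums given above differed between these groups too, as did the sex-linked genes. Ebp and Nsdhl, which lie on the X chromosome, differed by 0.018 and -0.022.

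The 5 genes that fell were Fasn, Sc5d, Cyp51, Tm7sf2 and Scd2. Fasn fell 1.54-fold from 2434 ± 127 to 1581 ± 118 (SD, n = 3), with no overlap (log2 change -0.62, SE 0.081, adjusted p = 0.00016). Sc5d, a ring desaturase late in the sterol chain, read 1835, 1857 and 1625 in wild type, 1233, 1089.7 and 1338 in knockout and 1017, 1052 and 1066 in knockout with GSH. Wild type stood above both other groups, a 1.46-fold fall in knockout (log2 change -0.54, SE 0.090, adjusted p = 0.00096), although its probe set 1424709_at did not pass the test. Tm7sf2 fell 1.37-fold with overlapping groups (log2 change -0.45, SE 0.14, adjusted p = 0.033), and without wild type 3, knockout 2, wild type 5 or knockout 4 the adjusted p was 0.099, 0.094, 0.14 and 0.14. Scd2 fell 1.13-fold (log2 change -0.18, SE 0.057, adjusted p = 0.038), and the call was lost on leaving out any of the 6 arrays compared or GSH 4 (adjusted p = 0.051 to 0.19). Its other kept probe sets fell by more, 1415823_at with a log2 change of -0.42 and 1415824_at with -0.99 (adjusted p = 0.0014 and 0.00015).

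The 4 genes that rose were 3 of the 5 sensing and transport genes and Acsl5. Stard4 rose 1.55-fold from 775 ± 67.1 to 1200.2 ± 56.6 (SD, n = 3; log2 change 0.63, SE 0.078, adjusted p = 0.00011). It was the only call of this comparison kept under all 23 alternatives run. The calls of Fasn, Sc5d and Acsl5 were lost under the fold rule of the series design alone, which is a cut on size, and were kept under every other alternative. Acsl5 rose 1.40-fold (log2 change 0.48, SE 0.069, adjusted p = 0.00032) and Srebf1, at 1103, 1185 and 965 in wild type, 1511, 1387 and 1304 in knockout and 1363, 1158 and 1095 in knockout with GSH, rose 1.29-fold (log2 change 0.37, SE 0.082, adjusted p = 0.0059), both without overlap. Srebf2 rose 1.25-fold with overlapping groups (log2 change 0.32, SE 0.085, adjusted p = 0.016); its other kept probe set did not pass the test, and without wild type 3, knockout 2 or wild type 5 the adjusted p was 0.066, 0.064 and 0.052. With median centring the calls of Srebf1 and Srebf2 were lost (adjusted p = 0.076 and 0.18), which left 2 higher and 5 lower. Among the uncalled genes, Elovl6 passed without GSH 3 (0.037), and Hsd17b7, Dhcr7 and Fads2 passed without knockout 2 (0.037, 0.044 and 0.036). Other kept probe sets of uncalled genes fell in knockout: Idi1 1423804_a_at by 0.52 on the log2 scale, Hsd17b7 1457248_x_at and 1417871_at by 0.49 and 0.64, and Scd1 1415965_at by 0.39 (adjusted p = 0.0015, 0.0037, 0.012 and 0.023).

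Cyp51 gave opposite answers at its probe sets in this comparison. Probe set 1450646_at fell 1.32-fold in knockout (log2 change -0.40, SE 0.074, adjusted p = 0.0021). Probe set 1422533_at read 237, 267 and 284 in wild type, 386, 407 and 496 in knockout and 219, 226 and 278 in knockout with GSH and rose, with a log2 change of 0.71 (SE 0.12, adjusted p = 0.0014), and neither pair of groups overlapped. The dim probe set 1422534_at, which the filter left out, read 155, 160.4 and 108 in wild type, 71.4, 57.6 and 67.1 in knockout and 15.0, 40.7 and 60.3 in knockout with GSH; it was above the control level on 2 of 3 knockout arrays and 1 of 3 GSH arrays, and without the filter its difference between knockout and wild type was -1.10 (adjusted p = 0.18). With GSH the first 2 probe sets fell alike from knockout, by 0.97 and 0.84 on the log2 scale (adjusted p = 1.3e-06 and 0.00027). Against wild type 1450646_at fell by 1.37 with GSH, while 1422533_at differed by -0.13 (adjusted p = 0.43). A direction of Cyp51 between knockout and wild type therefore depends on the probe set, and no other member had kept probe sets called in opposite directions in any of the 3 comparisons.

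**Figure D4:**
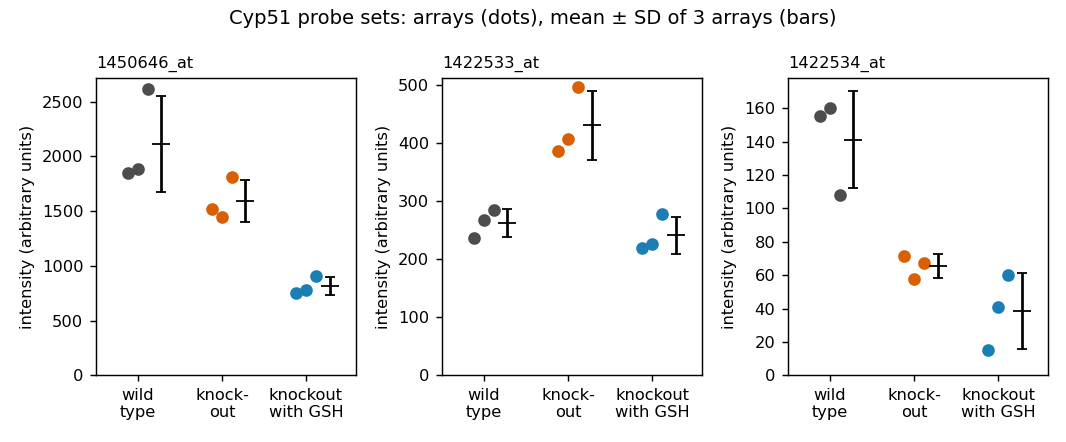
Intensity in arbitrary units (vertical axes, from 0) of the 3 Cyp51 probe sets on each array (dots), with mean ± SD of 3 arrays (bars) for wild type, knockout and knockout with GSH. In knockout 1450646_at read 1447 to 1815 against 1845 to 2616 in wild type, and 1422533_at read 386 to 496 against 237 to 284.

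Set against wild type, the knockout cells with GSH showed 17 genes lower and 6 higher of 32, with a median log2 change of -0.34, where 24.5% of all genes tested fell, 23.5% rose and the median was 0.00. Median centring moved the median of all probe sets kept from 0.02 to -0.13 in this comparison and gave 19 lower and 2 higher. By branch, 8 of 16 sterol enzymes fell and 4 rose (median -0.34), 2 of 5 sensing and transport genes fell (median -0.01), and 7 of 11 fatty acid genes fell and 2 rose (median -0.98). The 4 desaturases stood lowest of the steps again, with log2 changes of -2.09 for Fads2, -1.77 for Scd1, -1.37 for Fads1 and -0.98 for Scd2. Fasn and Acsl5, which with Scd2 were the fatty acid genes called in each of the 3 comparisons, ended at -0.99 and 0.96 (adjusted p = 1.7e-06 and 5.4e-07). Elovl6 ended at -1.18 and Acaca at -0.54 (adjusted p = 1.0e-05 and 0.02), and Elovl1 at 0.32 (adjusted p = 0.0025). The Elovl1 call was lost with median centring, without the set term and with the replicate block (adjusted p = 0.14, 0.24 and 0.71). It was also lost under the fold rule of the series design.

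The sterol enzymes lower than wild type were Cyp51, Fdft1, Hmgcs1, Sc5d, Idi1, Sqle, Fdps and Nsdhl, with log2 changes from -1.37 to -0.37, and Insig1 and Srebf2 were lower by -0.37 and -0.31. The sterol enzymes higher than wild type were Tm7sf2, Mvd, Dhcr7 and Ebp, at 0.51, 0.46, 0.34 and 0.29 (adjusted p = 0.012, 0.016, 0.023 and 0.013). Each of these 4 rises was lost on leaving out single arrays: Tm7sf2 without wild type 4 (0.062), Mvd without wild type 4, GSH 2 or GSH 4 (0.083, 0.053 and 0.054), Dhcr7 without wild type 3, wild type 5, GSH 2 or GSH 4 (0.065, 0.078, 0.085 and 0.058), and Ebp without wild type 5 or GSH 4 (0.084 and 0.063). The fall of Acaca was lost without wild type 3, wild type 5, GSH 3 or GSH 4 (0.064, 0.12, 0.057 and 0.12). Without wild type 4 Lss and Stard4 passed the test (0.019 and 0.042), and without GSH 4 so did Hsd17b7 (0.039). The call of Stard4, raised in knockout, was not made here (log2 change 0.20, 95% interval 0.033 to 0.38, adjusted p = 0.053), nor that of Srebf1 (0.15, adjusted p = 0.16). At other kept probe sets Stard4 1429239_a_at was called higher (0.31, adjusted p = 0.033), and Mvk 1418052_at, Hsd17b7 1417871_at and Elovl5 1437211_x_at were called lower (-0.66, -0.52 and -0.29; adjusted p = 0.027, 0.021 and 0.0058). For Mvd, Cyp51, Srebf2, Acaca, Elovl1 and Fads1, 1 other kept probe set each did not pass the test here.

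The level of each step by array shows how the branches differed. Averaged over its genes as log2 intensity relative to each gene's mean, the desaturase step stood at 0.53 to 0.57 on the wild-type arrays, 0.38 to 0.49 on the knockout arrays and -1.05 to -0.96 with GSH. The squalene and lanosterol steps stood at 0.15 to 0.28, 0.037 to 0.38 and -0.54 to -0.32. The mevalonate arm stood at 0.025 to 0.11, 0.034 to 0.21 and -0.25 to -0.089. In these 3 steps the wild-type and knockout arrays overlapped or lay close while every GSH array was lower. The stretch from lanosterol to cholesterol had another order, at 0.16 to 0.17 in wild type, -0.17 to -0.068 in knockout and -0.11 to -0.0079 with GSH. There the knockout and GSH arrays overlapped below wild type, and Cyp51 and Nsdhl fell with GSH while Tm7sf2, Ebp and Dhcr7 rose. The distance of knockout from wild type in this step rests in part on Cyp51 at 1450646_at. That probe set changed by -0.40 on the log2 scale in knockout, while 1422533_at changed by 0.71. Over whole branches the sterol enzymes averaged 0.13, 0.034 and -0.17 in wild type, knockout and knockout with GSH. The fatty acid genes averaged 0.25, 0.18 and -0.44 in the same order. Within that branch the 3 genes from acetyl-CoA to palmitate averaged 0.21, 0.037 and -0.25. The 3 elongases averaged 0.13, 0.045 and -0.18, and Acsl5 stood at -0.48, 0.00067 and 0.48. The lower average of the fatty acid genes with GSH thus rests largely on the 4 desaturases and does not describe the whole branch. The difference between branches has no test here, since the genes were chosen with earlier results known.

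**Figure D5:**
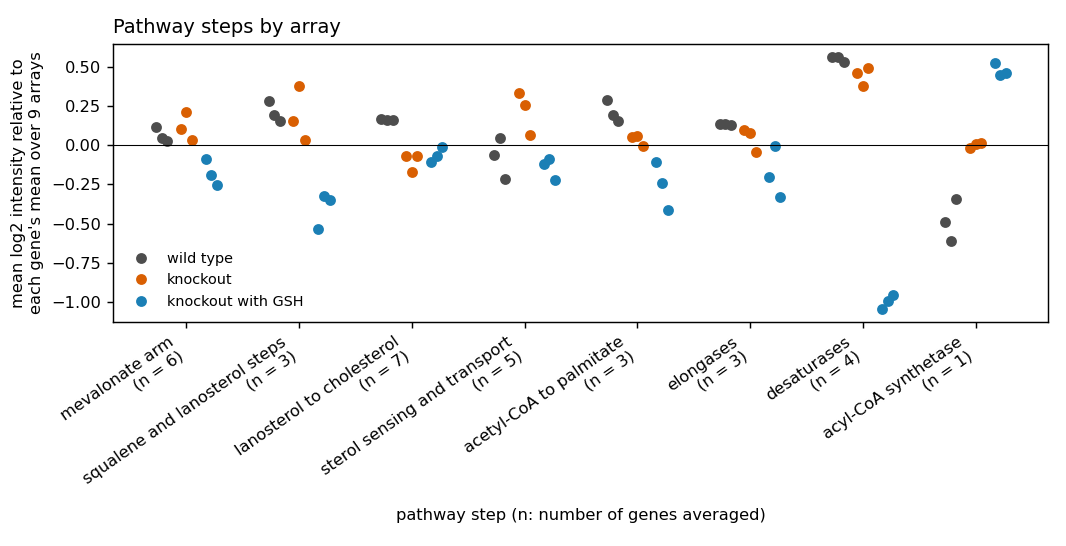
Mean log2 intensity relative to each gene's mean over 9 arrays (vertical axis) for 8 pathway steps (horizontal axis, with the number of genes averaged); each dot is an array of wild type, knockout or knockout with GSH. The desaturases stand at -1.05 to -0.96 with GSH against 0.38 to 0.49 in knockout, and the single acyl-CoA synthetase has the opposite order.

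Other genes of the same pathways were read from lists that share no member with the 32. Of 10 other sterol pathway and SREBP-2 target genes measured, 7 passed the filter; 4 of them fell and 2 rose with GSH against knockout (median -0.33), and 1 rose in knockout against wild type, where 19.8%, 19.7% and 16.7% of all genes did so. Msmo1, the methyl-sterol oxidase that acts beside Cyp51, read 2532, 2678 and 3042 in wild type, 2408, 2499 and 2771 in knockout and 1788, 1834 and 2110.1 in knockout with GSH, with every GSH array below every other, and fell with GSH (log2 change -0.42, adjusted p = 0.00017). Stard3, a cholesterol carrier of endosomes, read 1213, 1174 and 929 in wild type, 1345, 1259 and 1048 in knockout and 2259.9, 2135 and 2061 in knockout with GSH, and rose (log2 change 0.83, adjusted p = 7.3e-06). Ch25h, which makes 25-hydroxycholesterol, a sterol that holds SREBP processing back, read 4989, 5117 and 5576 in wild type, 6625, 7127 and 8275 in knockout and 8531, 8278 and 9131 in knockout with GSH. It was higher in knockout than in wild type (log2 change 0.49, adjusted p = 0.00011) and higher again with GSH (log2 change 0.24, adjusted p = 0.0086).

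Of 22 other fatty acid synthesis and SREBP-1 target genes measured, 15 passed the filter; 5 fell and 1 rose in knockout, and 2 fell and 3 rose with GSH (medians -0.28 and 0.10). Over all genes tested 15.7% fell and 16.7% rose in knockout, and 19.8% fell and 19.7% rose with GSH, so the counts with GSH are near the background and are no result about the list. Me1, malic enzyme, which supplies NADPH for fatty acid synthesis and is also a known Nrf2 target, read 2428, 2213 and 2505 in wild type, 1251, 1129.9 and 1232 in knockout and 1558, 1787 and 1586 in knockout with GSH. Knockout had the lowest values of the 3 groups, with a fall from wild type (log2 change -0.98, adjusted p = 4.8e-06) and a partial rise with GSH (log2 change 0.45, adjusted p = 0.0012). Hacd1, a dehydratase of elongation, and Acsl3, an acyl-CoA synthetase, fell in knockout by 0.40 and 0.51 on the log2 scale (adjusted p = 0.007 and 0.0074). Gpam, which starts triglyceride synthesis, read 1338, 1245 and 1473 in wild type, 1238, 1132 and 1532 in knockout and 675, 714 and 907 in knockout with GSH, and fell with GSH (log2 change -0.77, adjusted p = 1.7e-05). Elovl7, another elongase, read 169.6, 233 and 223 in wild type, 155, 114 and 165 in knockout and 509, 331 and 456 in knockout with GSH, and rose with GSH (log2 change 1.57, adjusted p = 0.0001). Tecr, the reductase of elongation, was higher with GSH than in wild type (log2 change 0.44, adjusted p = 0.00021).

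Genes of SREBP processing and of the LXR axis, the sterol-activated arm that exports cholesterol, had 14 of 15 measured genes kept; 6 rose and 2 fell in knockout, and 6 rose and 1 fell with GSH (medians 0.15 and 0.19), where 16.7% and 15.7% of all genes rose and fell in knockout and 19.7% and 19.8% with GSH. Nr1h3, which encodes LXR-alpha, read 149.6, 138 and 97.7 in wild type, 258, 299.5 and 162 in knockout and 480.4, 499 and 414 in knockout with GSH. Its groups were ordered without overlap, with a rise in knockout (log2 change 0.88, adjusted p = 0.0016) and a rise with GSH (log2 change 0.99, adjusted p = 0.00045). Abca1, the cholesterol exporter that is a standard LXR target, read 4833, 4823 and 6236 in wild type, 7548, 7245 and 9656 in knockout and 8694, 8965 and 10454 in knockout with GSH, and was higher in knockout (log2 change 0.62, adjusted p = 1.2e-05) and with GSH against wild type (log2 change 0.83, adjusted p = 4.2e-07). Abcg1, a related exporter, read 1343, 1341 and 1109 in wild type, 1771, 1452 and 1867 in knockout and 3015, 2473 and 2546 in knockout with GSH, and rose with GSH (log2 change 0.66, adjusted p = 0.0009). Mylip, an LXR target that degrades the LDL receptor, read 779, 714 and 718 in wild type, 1246, 1110.1 and 1183 in knockout and 1723, 1598 and 1384 in knockout with GSH, and rose in both steps (log2 change 0.68, adjusted p = 0.00015 in knockout; log2 change 0.41, adjusted p = 0.0036 with GSH). Macrophages express Nr1h3, Abca1 and Abcg1, and the sum of macrophage markers rose in the same order, from 61662 to 63987 in wild type through 114022 to 127428 in knockout to 157543 to 177459 with GSH; its part in these values was not tested.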

How the data were processed

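The deposited values are intensities per probe set on a linear scale, 1 column per array; the authors had scaled them, since the values of every array have a 2% trimmed mean of 500, and no source used here names the summarising software. Per the labels' protocols, cDNA was transcribed in vitro to labelled cRNA for hybridisation. Of 45101 probe sets, 64 controls were left out and 2 values at 0 were set to 0.1. Log2 intensities were taken, and only probe sets whose mean reached the median over all entered the fit (22519, with a geometric mean of at least 115.9). Symbols came from the platform annotation: 1 symbol stood at 34945 probe sets, more than 1 at 932 and no symbol at 9160, and 34741 of the first matched a RefSeq gene. The 32 genes had 75 probe sets, of which 61 were kept.

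One limma model (limma 3.58.1, R 4.3.3) covered the 9 arrays with terms for group and set. Its empirical Bayes step used an intensity trend, with 5 degrees of freedom left over and 6.08 from the prior. The fit was also run on simulated data with independent noise and no set effects. Such data cannot show how the fit performs on these arrays. Benjamini-Hochberg adjusted p under 0.05 in limma was the call. Tables were made with pandas 2.3.3 in Python 3.11.15. The genes and lists were chosen with earlier results of these data known. Named genes were all 32, and of each list up to 3 genes with the smallest adjusted p per comparison. Alternatives were other filters, normalisations and models, single arrays left out, the median over probe sets, and the fold rule of the series design. The fold rule asked for at least 1.5-fold in at least 6 of 9 pairs and an unadjusted limma p under 0.05. It also asked that the mean fold of the pairs in the gene's direction, less its standard error, be at least 1.5. The number of arrays limits the precision.

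Replicate numbers 2, 3 and 4 occur in the titles of both knockout groups. Deviations of the same-numbered arrays from group means correlated at 0.32, 0.289 and 0.667. The crossed pairs of set 2 gave 0.24 and 0.39, so these values do not show that the numbers pair the arrays. Number 4 lies in set 3 in both knockout groups, where a shared number and a shared set cannot be told apart. The wild type with knockout gave 0.42 for number 3 and -0.485 for number 4, which lies in different sets. These values cannot decide on pairing either. The main fit used the set and took no arrays as paired.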

Additional observations from a re-analysis of the deposited data

How the results depend on the processing

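All 32 genes kept their direction where they had a call, under every alternative run, except Cyp51 between knockout and wild type, which turned to 0.16 as the median over its probe sets. Of the calls, 1 of 9 (knockout with wild type), 10 of 22 (GSH with knockout) and 12 of 23 (GSH with wild type) held under every alternative, 23, 24 and 23 in number. The fold rule of the series design called 1, 10 and 12 of the 32 genes. These are the genes that held under every alternative, so this cut on size sets those counts. Between knockout and wild type, the calls of Fasn, Sc5d and Acsl5 were lost under the fold rule alone. Between GSH and knockout, the calls of Sqle, Fasn, Insig1, Stard4, Dhcr7 and Acsl5 were lost under the fold rule alone. For sterol enzymes the rule called 0, 5 and 5 in place of 3, 10 and 12. For fatty acid genes it called 0 and 5 in place of 3 and 9 in the first 2 comparisons. Without a set term 4 and 15 genes were called in place of 9 and 23 in the comparisons with wild type, sterol enzymes 1 and 7 in place of 3 and 12. The replicate block over the 9 arrays, which joins wild type 4 of set 2 to arrays of set 3, called 5 genes between knockout and wild type. It called 1 sterol enzyme there and 7 between GSH and wild type. Between GSH and knockout it called 20, without Ebp and Fdps. Over the 6 knockout arrays alone, chosen after seeing the data, the block called 23, Ebp and Fdps among them. The median over probe sets called 5 sterol enzymes between knockout and wild type. Leaving out 1 array at a time gave 6 to 10, 20 to 23 and 20 to 23 genes. The cause of these changes was not tested. Where an array was left out, the smaller number of arrays and the values of that array cannot be told apart. Signal near the array control levels of 43.4 to 82.9 limits Cyp51 1422534_at, Sc5d 1424709_at, Nfe2l2 1457117_at and Sftpc; of the 61 kept probe sets, Sc5d 1424709_at alone was not above that level on every array.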

Other observations

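Of 16 genes measured in a list drawn up for surfactant phospholipid synthesis, 15 passed the filter. The list also holds the transporter Abca3 and the triglyceride enzymes Dgat1 and Dgat2, so its counts are not of phospholipid synthesis alone. With GSH against knockout 7 rose and the other 8 did not pass the test (median log2 change 0.20), where 19.7% of all genes tested rose. In knockout against wild type 4 of the 15 rose, where 16.7% of all genes did, and with GSH against wild type 8 rose, where 23.5% of all genes did. No test compared these shares. Abca3, which loads phospholipid into lamellar bodies, read 938, 1005 and 801 in wild type, 948, 1019.5 and 902 in knockout and 1526, 1647 and 1394 in knockout with GSH, with every GSH array above every other (log2 change 0.67, adjusted p = 3.7e-05 against knockout). Lpin2, a phosphatidate phosphatase, read 886, 896 and 916 in wild type, 1181, 1291 and 1084 in knockout and 1843, 1638 and 1877 in knockout with GSH, and was ordered without overlap (log2 change 0.39, adjusted p = 0.0055 in knockout; log2 change 0.59, adjusted p = 0.00023 with GSH). Dgat1, which makes triglyceride, read 1360.2, 1477 and 785 in wild type, 1266, 1323 and 867 in knockout and 2522, 2027 and 1579 in knockout with GSH, and was higher with GSH (log2 change 0.83, adjusted p = 5.6e-05). In knockout Cept1, which joins the head group to the lipid, and Agpat2, an acyltransferase, rose by 0.29 and 0.31 on the log2 scale (adjusted p = 0.0058 and 0.025).

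Markers of lipid-laden fibroblasts and adipocytes were read beside them, and the genes named were chosen after their values were seen. Of 9 measured, 6 passed the filter, and Adipoq, Cidec and Lep, which define adipocytes, were above the control level on no array. Plin2, the coat protein of lipid droplets, read 9015, 9161 and 7809.8 in wild type, 11265, 13789 and 10158 in knockout and 18336, 16038 and 11674 in knockout with GSH, higher in knockout (log2 change 0.43, adjusted p = 0.0055) and again with GSH (log2 change 0.37, adjusted p = 0.0091). Lpl, the lipase that frees fatty acids from lipoproteins, read 8332, 8307 and 7618 in wild type, 8065, 7022 and 7029.6 in knockout and 15549.8, 13526 and 12768 in knockout with GSH, and rose with GSH (log2 change 0.92, adjusted p = 1.7e-06). Cd36, the fatty acid importer, read 4314, 4619 and 4493 in wild type, 7937, 7505 and 7985 in knockout and 8249, 8780.2 and 8996 in knockout with GSH, and was higher in knockout (log2 change 0.80, adjusted p = 1.8e-06). Pparg rose with GSH (log2 change 1.04, adjusted p = 0.0062) and Fabp4 fell (log2 change -1.04, adjusted p = 3.5e-06). Macrophages also express Plin2, Lpl and Cd36. Which cells gave the signal of the genes named here, Pparg and Fabp4 included, was not tested.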
